A study of Mus musculus with 6 samples.

Results

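The transcripts described here encode the class I phosphoinositide 3-kinase (PI3K) subunits, the kinase PDK1 and AKT in MOC2, a papillomavirus-free line of mouse oral squamous carcinoma. They were chosen by gene symbol, and all 9 listed symbols (Pik3ca, Pik3cb, Pik3cd, Pik3r1, Pik3r2, Pik3r3, Pdpk1, Akt1 and Akt2) were found among the 55418 symbols of the count table. All 9 passed the filter on low counts, which left 15199 genes to test. Polyadenylated RNA was sequenced in 6 libraries, 3 from cells given a control CRISPR edit (control) and 3 from cells labelled EphA4 knockout, which are the single clone H3. Because the edited cells are 1 clone, a difference between clones and a difference made by the edit cannot be told apart. Both groups are MOC2 cells that were thawed, passaged 2 times and harvested without treatment, and both grew in medium with 10% serum, EGF, hydrocortisone and 0.1% insulin, so that growth factors that feed PI3K were present in every culture.

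Class I PI3K is a pair of proteins, a catalytic subunit that phosphorylates a membrane lipid and a regulatory subunit that stabilises it, holds it inactive and recruits it to phosphorylated receptors and adaptors. The lipid product draws PDK1 and AKT to the membrane, where PDK1 phosphorylates AKT, which then acts on growth, survival and metabolism. Regulatory subunits compete for the same catalytic partners and receptors, so the relative amounts of the subunits are of interest in carcinoma cells, where this pathway is often active. The series names negative regulation of AKT by EphA4, an ephrin-binding receptor tyrosine kinase, as its subject, and the comparison asks whether the transcripts of this machinery differ between the groups.

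The targeted gene did not follow its label. Epha4 had 51.4, 59.8 and 54.0 CPM (counts scaled to a common library size) in control replicates 1 to 3 and 97.4, 103 and 98.1 CPM in the knockout-labelled replicates, a log2 fold change of 0.86 (SE 0.06, edgeR quasi-likelihood adjusted p = 2.1e-06). Counts per gene cannot tell whether the edited stretch is transcribed or any protein is made, and all directions below are those of the libraries labelled EphA4 knockout against control. Totals were 35115926 to 41775031 counts per library, so that 1 count is worth 0.0240 to 0.0283 CPM. EphA4 knockout replicate 3 stands apart, where processed pseudogenes took 1.49% of the counts, while they took 0.285% to 0.345% elsewhere. Epithelial markers were abundant (Krt8, Krt18, Epcam and Cdh1 from 627 to 1637 CPM as group means), while of the basal squamous markers Krt5 and Trp63 had at most 2 counts in any library and Krt14 fell from 3.72 ± 0.26 to 1.83 ± 0.60 CPM (SD, n = 3 each, edgeR adjusted p = 0.01). Of the 8 listed squamous epithelial markers 6 were tested, of which 4 rose and 2 fell, and their part in the results was not tested.

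All 9 transcripts passed the test, and they went both ways: 6 were higher and 3 were lower in the knockout-labelled libraries. Pdpk1, both AKT genes, Pik3ca, Pik3cb and Pik3r1 were higher, by 1.14-fold to 1.66-fold. Pik3cd, Pik3r2 and Pik3r3 were lower, by 5.50-fold, 1.90-fold and 1.80-fold. Passing was common in this comparison: 71.5% of the tested genes were called, 32.7% higher and 38.8% lower, and 76.1% of tested genes, like all 9 members, had groups without overlap. It was more common still among genes with at least 5 CPM in 3 libraries, where 4298 were higher and 4383 lower of 10519. A change of at least 2-fold was called for 30.5% of tested genes and for 1 of the 9 members, Pik3cd. The median log2 fold change was 0.29 over the members and -0.04 over all tested genes. The labels do not say whether the 3 samples of a group are separate cultures, and p-values reflect no more than the possibly technical spread among these 6 libraries. In bulk RNA, fewer cells that express a gene and less RNA per cell cannot be told apart.

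**Figure D1:**
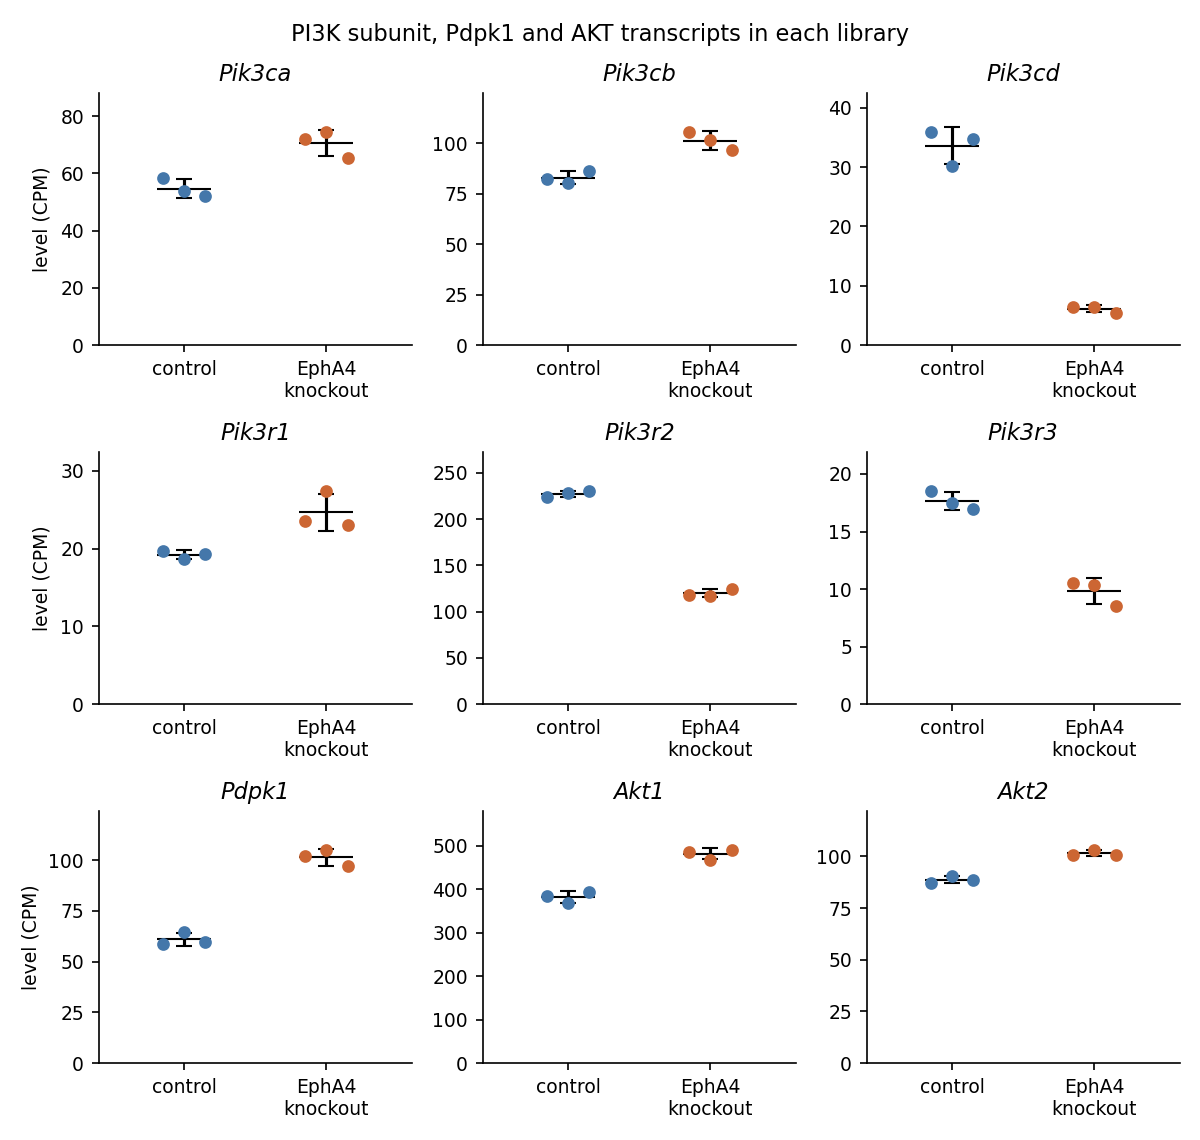
Level of each member in each library (y axis, TMM-scaled CPM, from 0) for 3 control and 3 EphA4 knockout libraries; points are libraries, horizontal bars are group means and error bars are SD. The groups are separate in all 9 panels, with Pik3cd, Pik3r2 and Pik3r3 lower and the other 6 higher in the knockout-labelled libraries.

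The sequences before the transcription starts of the 3 lower members, and of Akt1, the most abundant member, are shown for a view of the promoters of genes that moved together or lead the family. Each run is the 250 bases before the most upstream start that RefSeq lists (GRCm38.p6), 5′ to 3′ on the gene's strand. Capitals mark matches on either strand to a GC box (GGGCGG), a FOXO motif (TGTTTAC), an AP-1 motif (TGANTCA), an E-box (CACGTG) or a cyclic AMP response element (TGACGTCA), none of which contains another. The windows are chr4:149698709-149698958 (minus strand) for Pik3cd, chr8:70776713-70776962 (minus strand) for Pik3r2, chr4:116221166-116221415 (plus strand) for Pik3r3 and chr12:112674885-112675134 (minus strand) for Akt1.
Pik3cd: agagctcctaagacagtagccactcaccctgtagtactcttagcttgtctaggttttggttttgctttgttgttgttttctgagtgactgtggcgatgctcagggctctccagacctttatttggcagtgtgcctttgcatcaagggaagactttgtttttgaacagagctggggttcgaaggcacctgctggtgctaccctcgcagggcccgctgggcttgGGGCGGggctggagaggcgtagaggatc
Pik3r2: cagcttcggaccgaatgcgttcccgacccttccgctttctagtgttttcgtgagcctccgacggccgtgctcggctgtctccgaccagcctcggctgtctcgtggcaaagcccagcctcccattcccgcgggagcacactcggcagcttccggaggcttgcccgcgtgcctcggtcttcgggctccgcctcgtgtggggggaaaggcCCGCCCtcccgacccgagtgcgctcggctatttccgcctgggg
Pik3r3: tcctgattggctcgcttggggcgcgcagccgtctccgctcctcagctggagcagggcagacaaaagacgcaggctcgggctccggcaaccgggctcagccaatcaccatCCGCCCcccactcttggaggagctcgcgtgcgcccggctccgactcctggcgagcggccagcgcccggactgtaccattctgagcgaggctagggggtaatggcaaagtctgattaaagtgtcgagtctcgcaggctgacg
Akt1: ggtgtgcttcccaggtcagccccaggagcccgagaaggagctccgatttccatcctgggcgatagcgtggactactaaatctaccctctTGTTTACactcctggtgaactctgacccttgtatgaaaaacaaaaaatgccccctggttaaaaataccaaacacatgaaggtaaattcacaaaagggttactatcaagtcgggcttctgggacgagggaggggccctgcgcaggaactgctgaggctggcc

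Each of the 3 lower members had 1 GC box in this window, starting 28 bases before the start in Pik3cd, 43 in Pik3r2 and 141 in Pik3r3, and no match to the other 4 motifs. A GC box was present in 7 of the 9 members' windows, both higher and lower ones, and in 32.7% of 32851 RefSeq promoter windows of the same length. Akt1 alone held the FOXO motif, 161 bases before its start, which 3.17% of all windows hold. Pik3ca alone held the AP-1 motif, found in 6.75% of all windows, and no member held the E-box (6.02% of all windows) or the cyclic AMP element (1.55%). The GC content of the windows was 53.6% for Pik3cd, 65.6% for Pik3r3 and 68.4% for Pik3r2, which lies within the range of the 6 higher members, from 46.4% for Pdpk1 to 78.0% for Pik3cb, and the median over all windows was 52.4%. Other listed starts were not scanned, though 2 starts each are listed for Akt1, Pdpk1 and Pik3r1, 3 each for Pik3cd and Pik3r3 and 4 for Akt2. The shares over all windows are not limited to the most upstream start. A match is a run of letters and not a shown binding site.

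Among the catalytic subunits, Pik3cd stood apart from Pik3ca and Pik3cb. Pik3cd, on chromosome 4, encodes the delta isoform, known mainly from leukocytes. It had 35.9, 30.1 and 34.8 CPM in control replicates 1 to 3 and 6.46, 6.42 and 5.44 CPM in the knockout-labelled ones. Every knockout-labelled library was thus far below the lowest control library, with a log2 fold change of -2.46 (SE 0.11, edgeR adjusted p = 1.2e-07). The size of this change exceeded that of 87.7% of all tested genes. Its raw counts, 1063 to 1449 in control against 200 to 237 in the knockout-labelled libraries, show it was detected in every library.

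Because delta is known mainly from leukocytes, leukocyte markers were read beside it. Of 10 such markers 9 stayed under 1 CPM in every library. The pan-leukocyte gene Ptprc averaged 0.12 CPM in control against 0.38 CPM in the knockout-labelled libraries, and Cd3e, Itgam and Adgre1 had 0 counts in all 6. The exception was Cd68, a lysosomal gene used as a macrophage marker, which had 18.2 ± 1.32 CPM in control and fell to 4.24 ± 0.39 CPM (SD, n = 3 each). The summed level of the list, most of it Cd68, ran from 17.9 to 20.3 CPM in control. In the knockout-labelled libraries it ran from 4.45 to 5.01 CPM, again mostly Cd68. Fibroblast markers also moved with the groups: 5 of 7 were tested and all 5 fell, and their summed level was 48.0 to 51.4 CPM in control against 1.93 to 2.03 CPM in the knockout-labelled libraries. As group means, Col3a1 fell from 20.6 to 0.10 CPM, Col1a1 from 14.8 to 0.05 CPM and Pdgfra from 9.40 to 1.55 CPM. Pdgfrb fell from 3.70 to 0.01 CPM and Dcn from 0.84 to 0 CPM. The untested Col1a2 and Lum were at or near 0 in both groups, with at most 0.26 CPM as a group mean. The part of such cells in the fall of Pik3cd was not tested. Endothelial markers summed to no more than 1.46 CPM in any library.

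Pik3ca and Pik3cb, which encode the alpha and beta isoforms found in most tissues, were modestly higher. Pik3ca, on chromosome 3, is the isoform gene most often mutated in carcinomas. It had 58.2, 53.8 and 51.9 CPM in control against 71.8, 74.5 and 65.4 CPM in the knockout-labelled libraries, a log2 fold change of 0.37 (SE 0.06, edgeR adjusted p = 0.00078). The groups were separate, the lowest knockout-labelled library being replicate 3. Pik3cb, on chromosome 9, had 82.2, 80.4 and 86.6 CPM in control against 106, 102 and 96.6 CPM in the knockout-labelled libraries, a log2 fold change of 0.29 (SE 0.05, edgeR adjusted p = 0.00059). Both rises are small for this data set: 69.3% of tested genes had a larger absolute log2 fold change than Pik3ca and 75.6% a larger one than Pik3cb.

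The regulatory subunits also split, with Pik3r1 higher and Pik3r2 and Pik3r3 lower. Pik3r2, on chromosome 8, encodes the beta regulatory subunit and was by far the most abundant of the 3. It had 224, 228 and 230 CPM in control against 118, 117 and 124 CPM in the knockout-labelled libraries. All 3 knockout-labelled values sat near 120 CPM and all 3 control values near 227 CPM (group means 119.8 and 227.5), a log2 fold change of -0.92 (SE 0.04, edgeR adjusted p = 6.4e-08). In absolute terms this was the largest difference of any member, in which it fell by 107.7 CPM, while Akt1 rose by 99.6 CPM. A gene model on the other strand, 6330537M06Rik, covers 1.08% of its exon bases and had 2 to 54 counts per library.

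Pik3r1, on chromosome 13, encodes the alpha regulatory subunit and the shorter forms made from the same gene, which a count per gene does not separate. It had 19.7, 18.6 and 19.3 CPM in control against 23.5, 27.4 and 23.1 CPM in the knockout-labelled libraries, a log2 fold change of 0.36 (SE 0.09, edgeR adjusted p = 0.0045). Replicate 2 was the highest of the knockout-labelled libraries and all 3 lay above the controls. Pik3r3, on chromosome 4, encodes the gamma regulatory subunit. It had 18.5, 17.5 and 16.9 CPM in control against 10.5, 10.4 and 8.49 CPM in the knockout-labelled libraries, a log2 fold change of -0.85 (SE 0.11, edgeR adjusted p = 0.00014). The annotated gene Gm49337 shares 24.3% of the exon bases of Pik3r3 and had 0 counts in every library, and whether reads in the shared part were counted for Pik3r3 is not given in the sources used here.

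Downstream of the lipid, Pdpk1 showed the largest rise of the 9. Pdpk1, on chromosome 17, encodes PDK1, which phosphorylates the activation loop of AKT and of related kinases. It had 58.7, 64.7 and 59.6 CPM in control against 102, 105 and 96.9 CPM in the knockout-labelled libraries. The groups were far apart relative to their spread, with a log2 fold change of 0.73 (SE 0.05, edgeR adjusted p = 2.4e-06), or 1.66-fold.

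Both AKT members rose slightly. Akt1, on chromosome 12 and the most abundant member, had 384, 368 and 395 CPM in control against 487, 467 and 491 CPM in the knockout-labelled libraries, a log2 fold change of 0.33 (SE 0.04, edgeR adjusted p = 6e-05). Akt2, on chromosome 7 and best known from insulin-stimulated glucose uptake, had 87.4, 90.5 and 88.7 CPM in control against 101, 103 and 101 CPM in the knockout-labelled libraries. Its log2 fold change of 0.19 (SE 0.04, edgeR adjusted p = 0.0012) was the smallest of the 9, though all 3 knockout-labelled libraries lay above all 3 controls. Its pseudogene Akt2-ps had 16 to 27 counts in 5 libraries and 105 in EphA4 knockout replicate 3, against at least 3195 counts for Akt2 in every library. These are transcript levels, and neither protein nor phosphorylation was measured in these data.

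**Figure D2:**
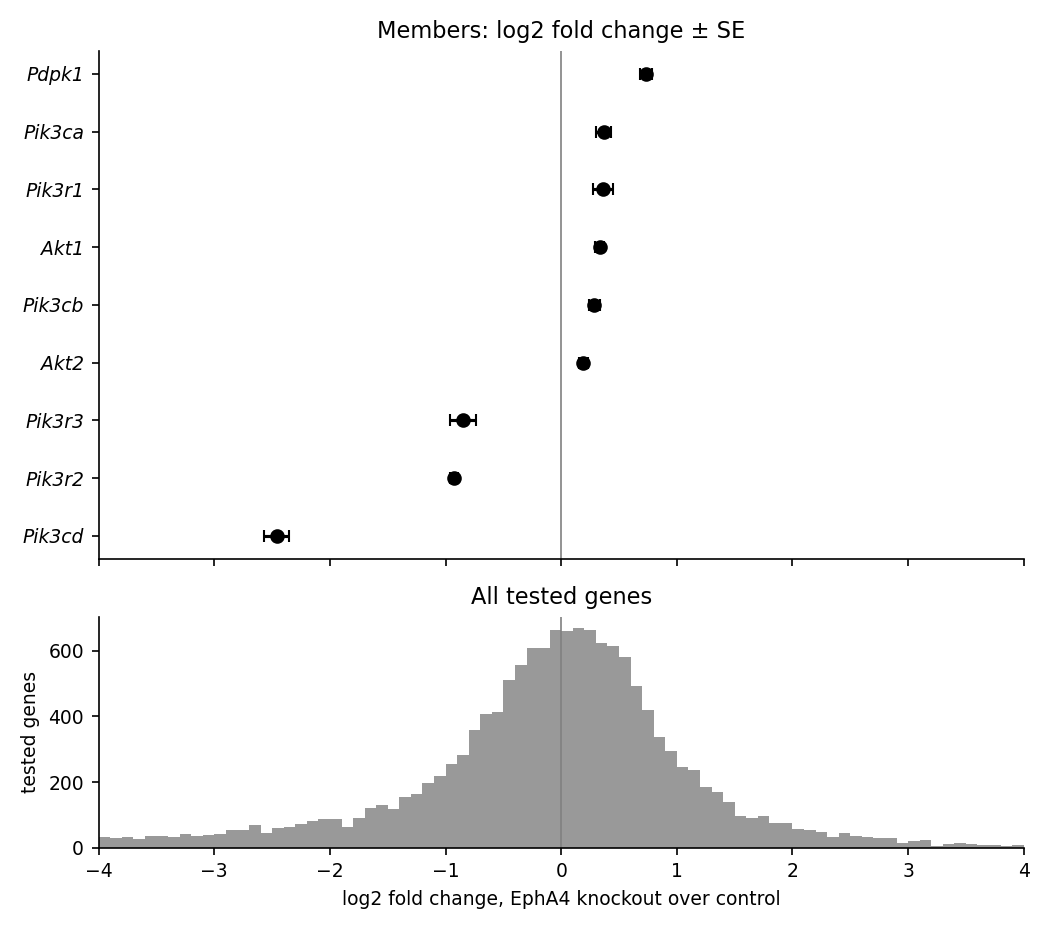
Upper panel, log2 fold change of each member in the libraries labelled EphA4 knockout over control, with error bars of 1 SE from edgeR; lower panel, the same quantity over all 15199 tested genes (953 lie beyond the axis limits of 4 in either direction). Pik3cd at -2.46 lies in the lower tail, while the 6 higher members, from 0.19 to 0.73, lie within the bulk of all genes.

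Levels of different genes were compared per length, as CPM per kilobase of exon (RPKM). In control the order was Akt1 (93.2 ± 3.29 RPKM, SD, n = 3), Pik3r2 (54.5 ± 0.77), Akt2 (12.5 ± 0.22), Pik3cb (11.5 ± 0.44), Pik3ca (6.02 ± 0.36), Pdpk1 (5.58 ± 0.30), Pik3cd (5.37 ± 0.49), Pik3r3 (3.33 ± 0.15) and Pik3r1 (1.91 ± 0.05). Neighbours overlapped between Pik3ca and Pdpk1 and between Pdpk1 and Pik3cd, so those 3 were not ordered beyond their spread. In the knockout-labelled libraries Akt1 (117.5 ± 3.12 RPKM) and Pik3r2 (28.7 ± 0.99) still led, followed by Akt2 (14.2 ± 0.20) and Pik3cb (14.1 ± 0.64), whose libraries overlapped. Below them came Pdpk1 (9.27 ± 0.38), Pik3ca (7.76 ± 0.51), Pik3r1 (2.45 ± 0.24), Pik3r3 (1.85 ± 0.22) and, last, Pik3cd (0.98 ± 0.09). Pik3cd thus went from place 7 to place 9 and Pik3r1 from 9 to 7. The places depend on the exon length used: per coding base, Pik3r2 was at place 4 in the knockout-labelled libraries, and Pik3cd was at place 8 in control. The place of Pik3r3 may also depend on whether reads in exons shared with Gm49337 were counted, which is not known.

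The balance of catalytic isoforms shifted away from delta, while the ranges of their summed level overlapped. Shares were taken within each library from length-scaled counts. Pik3cd made up 24.3%, 21.9% and 23.8% of the catalytic transcripts in control against 4.37%, 4.39% and 4.05% in the knockout-labelled libraries. Pik3cb went from 50.4 ± 1.68% to 61.7 ± 1.03% and Pik3ca from 26.2 ± 1.49% to 34.0 ± 0.92% (SD, n = 3 each), with no overlap between groups for any of the 3. The summed level of the 3 was 22.9 ± 0.89 RPKM in control against 22.8 ± 1.17 RPKM in the knockout-labelled libraries, and the ranges overlapped.

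The ratio of alpha to beta transcripts overlapped between the groups. The log2 ratio of Pik3ca over Pik3cb was -0.83, -0.92 and -1.07 in control against -0.90, -0.79 and -0.90 in the knockout-labelled libraries, so the ranges overlapped and the mean difference was 0.08 (exact two-sided permutation p = 0.4, Benjamini-Hochberg adjusted p = 0.457 over 8 ratios). Leaving out single libraries moved that difference between 0.01 and 0.13. Against delta, both rose: the log2 ratio of Pik3ca over Pik3cd was higher by 2.83 and that of Pik3cb over Pik3cd by 2.75, without overlap. Each had an exact permutation p = 0.1 and an adjusted p = 0.133, and 0.1 is the smallest p that 3 against 3 samples allow. With 3 against 3 no ratio can pass 0.05, so these values describe separation and not a call.

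**Figure D3:**
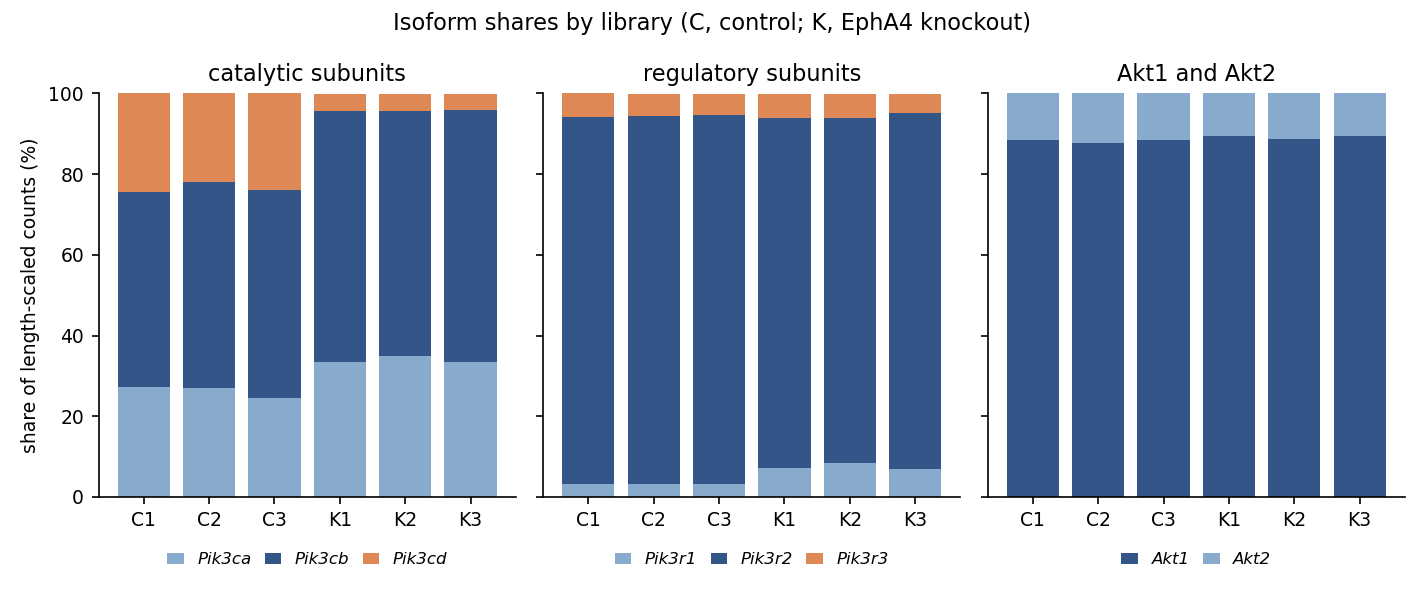
Share of each isoform in its class (y axis, percent of length-scaled counts) in each library, C1 to C3 for control and K1 to K3 for EphA4 knockout replicates (stacked bars sum to 100), for the catalytic genes, the regulatory genes, and Akt1 with Akt2. The Pik3cd segment shrinks from 21.9% to 24.3% in control to about 4% in the knockout-labelled libraries, and Pik3r2 and Akt1 remain the largest segments throughout.

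Among the regulatory transcripts Pik3r2 dominated in both groups. It made up 90.8%, 91.4% and 91.5% in control against 86.8%, 85.7% and 88.4% in the knockout-labelled libraries, a lower share without overlap. Pik3r1 went from 3.19 ± 0.11% to 7.43 ± 0.81% (SD, n = 3 each), while the share of Pik3r3 was 5.58 ± 0.31% and 5.62 ± 0.75% and overlapped. These small shares depend on the length used: that of Pik3r1 was 6.99% and 15.4% per coding base and 7.27% and 16.0% without length scaling, and that of Pik3r3 was 10.1% and 9.62% per coding base. The log2 ratio of Pik3r1 over Pik3r2 was higher by 1.28 and that of Pik3r1 over Pik3r3 by 1.21 (exact permutation p = 0.1 and adjusted p = 0.133 for each, no overlap). Pik3r2 over Pik3r3 differed by -0.07 on the log2 scale with overlap (exact permutation p = 0.8 and adjusted p = 0.8), and leaving out single libraries gave -0.20 to -0.01. In control Pik3r3 exceeded Pik3r1 per kilobase of exon in every library, and in the knockout-labelled libraries Pik3r1 exceeded Pik3r3 in every library. Without length scaling the mean share of Pik3r1 was above that of Pik3r3 (6.68%) in control too. The levels and shares of Pik3r3 use its full exon length, of which 24.3% is shared with Gm49337. If reads in the shared part were not counted, which is not known, these levels are too low and the order against Pik3r1 may differ.

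Summed over isoforms, regulatory transcripts were lower in every knockout-labelled library. The regulatory sum was 59.1, 59.7 and 60.3 RPKM in control against 32.7, 32.6 and 33.7 RPKM in the knockout-labelled libraries. The ratio of regulatory to catalytic transcripts was 2.51, 2.73 and 2.59 in control against 1.38, 1.39 and 1.57 in the knockout-labelled libraries, so every control library had the larger excess of regulatory transcripts. On the log2 scale the ratio fell by 0.85 (exact two-sided permutation p = 0.1, adjusted p = 0.133 over 8 ratios). The change does not depend much on the length used, but the level does: without length scaling the ratio was 1.54 ± 0.06 in control against 0.87 ± 0.06 in the knockout-labelled libraries (SD, n = 3 each). Transcript ratios say nothing of the amounts of the proteins.

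**Figure D4:**
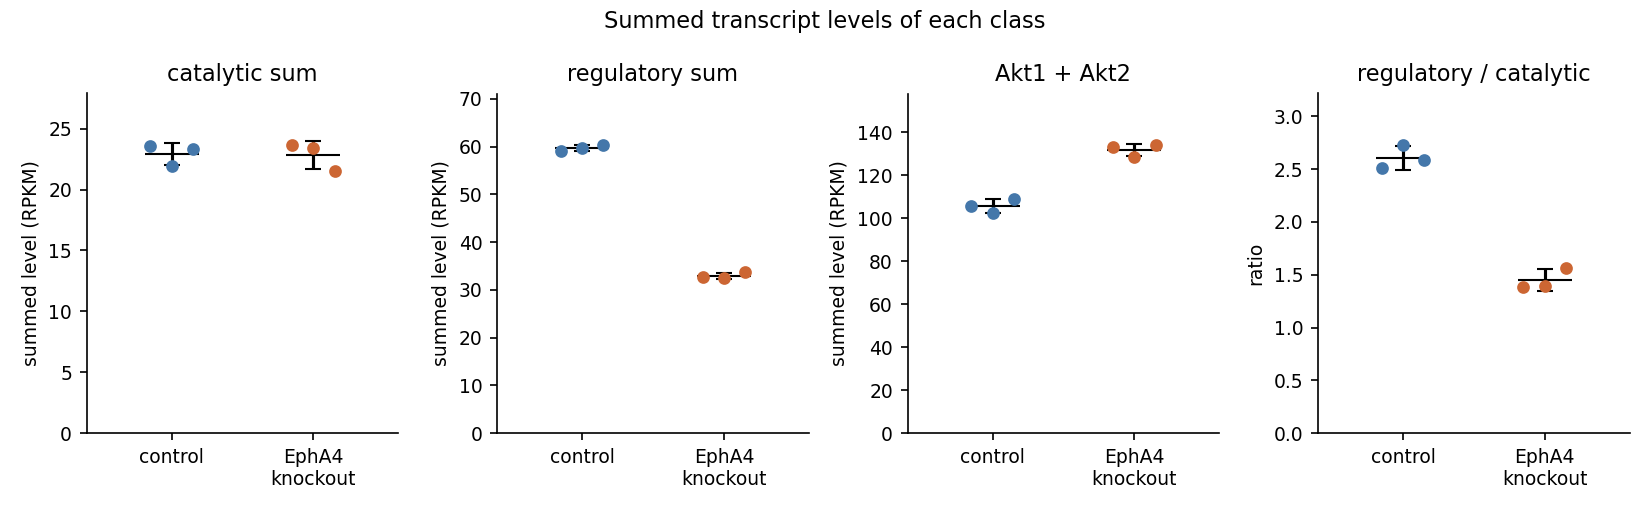
Summed levels of the catalytic genes, the regulatory genes and Akt1 with Akt2 (y axes, RPKM, from 0) and the ratio of regulatory to catalytic sums in each library; points are libraries, bars are means and error bars are SD, n = 3 each. The catalytic sums overlap near 23 RPKM (22.9 and 22.8), the regulatory sums fall from 59.7 to 33.0 RPKM and the AKT sums rise from 105.7 to 131.8 RPKM.

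The share of Akt1 over Akt2 shifted by 0.99 percentage points. Akt1 made up 88.2 ± 0.51% of Akt1 and Akt2 transcripts in control against 89.2 ± 0.40% in the knockout-labelled libraries (SD, n = 3 each). Akt2 made up the rest, 11.8% and 10.8%, or 18.8% and 17.4% per coding base. The log2 ratio of Akt1 over Akt2 was higher by 0.14, without overlap (exact permutation p = 0.1, adjusted p = 0.133).

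Genes with patterns like those of Pik3cd and Akt1 were sought among 9192 protein-coding genes by distance in centred log2 CPM over the 6 libraries. For Pik3cd the nearest were Tor3a, Itm2c and Serpinb9 (distances 0.19, 0.20 and 0.21), with log2 fold changes of -2.49, -2.43 and -2.48. For Akt1 the nearest were Eef1d, Psmd2 and Phb2 (each at 0.05). The distances of the 2 genes are not comparable, since a gene with a small change of its own lies near every gene that changed little.

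Around the members, 65 of 68 listed pathway genes were tested, and 25 were higher, 27 lower and 13 not past the threshold. That is 80% called against 71.5% of all tested genes, with a median log2 fold change of -0.07. The share called depends on the level of the genes. With a filter of 5 CPM in 3 libraries, 4298 genes were higher and 4383 lower of 10519 tested, among them 25 and 24 of the pathway genes. Among other PI3K genes 2 of 6 tested rose and 4 fell. Adaptors and RAS inputs had 6 higher and 7 lower of 14. The RAS genes, whose proteins bind some of the catalytic subunits directly, split. Hras rose (log2 fold change 1.09), and Rras, at 130.8 ± 9.34 CPM in control, fell to 27.6 ± 1.99 CPM (SD, n = 3 each). The PI3K inhibitor gene Pik3ip1 fell from 8.53 ± 1.22 to 1.17 ± 0.52 CPM, and the adaptor gene Pik3ap1, low in both groups, from 1.59 ± 0.20 to 0.19 ± 0.09 CPM.

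Genes that act on AKT after PI3K also went both ways. In mTORC2, the complex that completes AKT phosphorylation, 3 of 6 rose and 0 passed the test as lower, against 32.7% and 38.8% of all tested genes. Those that rose were Mtor, Mlst8 and Prr5, while Rictor and Mapkap1 did not pass (edgeR adjusted p = 0.46 and 0.24). Mtor, Prr5, Rictor and Mapkap1 are named here after their values were seen. Mlst8, which like Mtor is shared with the other mTOR complex, had the largest change of those that rose (log2 fold change 1.79). Prr5l, at 2 to 26 counts and chosen after its values were seen, had a log2 fold change of -1.32 that did not pass (edgeR adjusted p = 0.1), though its groups did not overlap. Of 8 tested genes of lipid and protein phosphatases 3 rose and 4 fell, and Inpp4b, whose product acts on a phosphoinositide, rose by a log2 fold change of 1.05.

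Other substrates of PDK1 had 4 higher and 5 lower of 12, with Prkci rising (log2 fold change 1.14) and Pkn3 and Sgk2 falling (-1.48 and -1.85). Sgk2 was low and variable (SE 0.50), with 111, 39 and 123 counts in control against 31, 12 and 28 in the knockout-labelled libraries. Proteins that bind AKT had 3 higher and 3 lower of 8, with Trib3, a pseudokinase reported to bind AKT, falling to 23.5 ± 2.74 CPM from 63.0 ± 3.85 CPM in control (SD, n = 3 each). Genes of AKT substrates had 4 higher and 4 lower of 11, with the FOXO gene Foxo4 falling from 33.3 ± 2.07 to 12.2 ± 1.98 CPM. The shares called were 75% for PDK1 substrates, 75% for AKT binding proteins and 72.7% for AKT substrates. These are near the 71.5% called among all tested genes.

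**Figure D5:**
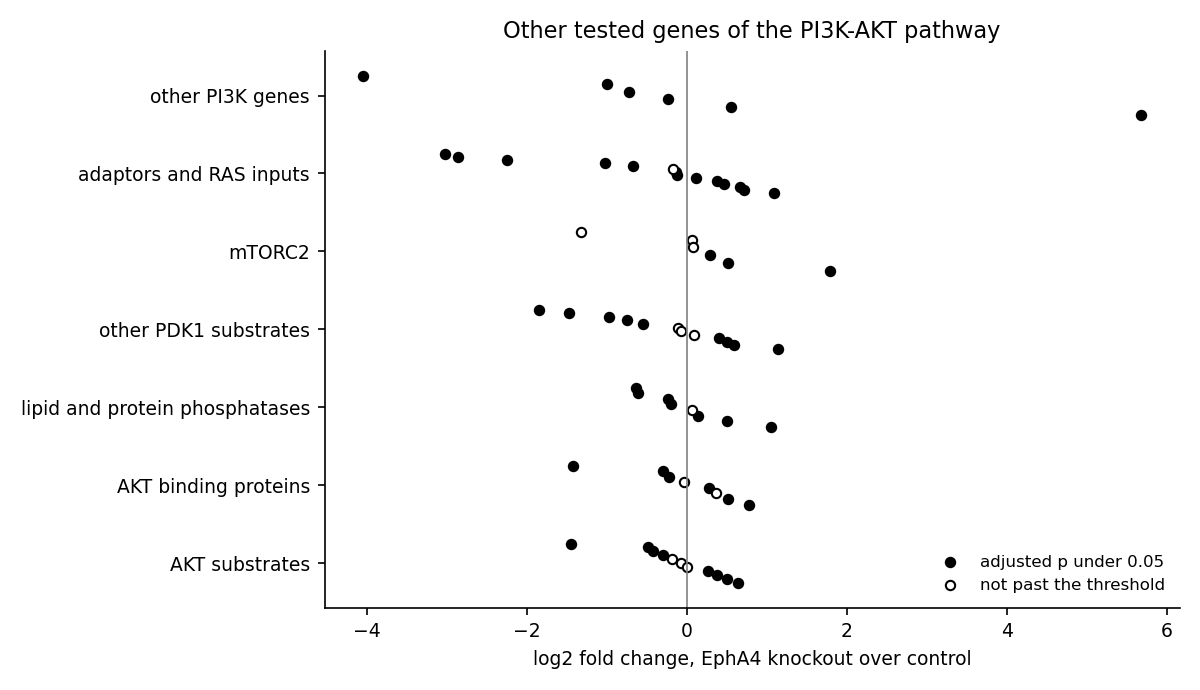
Log2 fold change (x axis, libraries labelled EphA4 knockout over control) of 65 tested genes in 7 pathway lists; filled points have an adjusted p under 0.05 in edgeR and open points do not. Points lie on both sides of 0 in every list, with fitted values from -4.04 (Pik3r5) to 5.68 (Pik3r6), both genes of low counts.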

How the data were processed

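Raw read counts per gene symbol of 6 MOC2 libraries (3 control, 3 EphA4 knockout, grouped by their titles) were used as the authors deposited them. STAR and GRCm39 are named without versions in the submitters' processing notes; the counter, strand setting and annotation were not given in the sources used here. All 55418 symbols were found in GENCODE M21 (built on GRCm38), from which exon lengths, gene types and chromosomes were taken. Genes kept by filterByExpr (15199 of 28042 with any count) were scaled by TMM and tested with edgeR 4.0.16 (glmQLFit, glmQLFTest, group only, two-sided; R 4.3.3). P-values were adjusted by Benjamini-Hochberg over all tested genes and read at 0.05. Each SE is the log2 fold change over the root of F. Shares and ratios used raw counts per kilobase of exon within a library, with exact permutation tests (SciPy 1.17.1). Log2 CPM for pattern distances had a prior count of 2. Replicates all differed beyond sampling noise (4.41 to 31.7 chi-square units per degree of freedom). Scripts were tested on simulated data with few changed genes. Most of the smaller changes and some of the larger ones were missed there, and the share of false calls came out above the threshold. The members, the pathway and marker lists and the tests were chosen with earlier results of these data known. Named genes were the 9 members, Epha4, up to 3 called pathway genes per list and direction with an absolute log2 fold change of at least 1, and the 3 nearest patterns of Pik3cd and Akt1 whose average log2 CPM was 3 or more. Results for 2 genes first placed in these lists are not reported here, and the list counts leave them out. Alternatives were other scalings, filters and tools, a replicate block, each replicate left out, stricter thresholds, other lengths and a pseudocount of 0.5.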

Additional observations from a re-analysis of the deposited data

How the results depend on the processing

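All 9 members kept their direction and passed an adjusted p of 0.05 under each of 14 alternatives (relative log expression, upper-quartile and no scaling factors, no filter, 5 CPM in 3 libraries, DESeq2 1.42.0, limma-voom 3.58.1, the replicate block and 6 fits without 1 library); the largest adjusted p was 0.035, for Akt2. Against a fold of 1.5 (glmTreat), 1 member was called higher, Pdpk1, in place of 6, and the 3 lower ones remained. How many of all tested genes pass against that fold was not counted, so these calls have no share to be read against. Same-numbered libraries did not deviate together (correlations -0.0029, 0.029 and 0.0083). Controls 2 and 3 and knockout 2 correlated best with their own number, and the other libraries did not. Pairing by number was thus not seen, though so few libraries cannot exclude it. With the replicate block 4624 genes were higher and 5715 lower, against 4963 and 5904 without it. The members' calls were 6 higher and 3 lower as before. Shares depend on the length used, since length sets the weight of each gene: the share of Pik3cb was 48.4% in control against 57.0% in the knockout-labelled libraries per coding base, 48.5% and 57.0% without length scaling, and 63.1% in the latter with the longest transcript. That of Pik3r2 was 82.9% and 75.0% per coding base, 86.1% and 77.7% without scaling, and 92.2% in control with the longest transcript. That of Akt1 was 81.2% and 82.6% per coding base, and 81.1% and 82.6% without scaling. All 8 log2 ratio differences kept their sign under every alternative run. Counts per gene do not separate isoforms of 1 gene. At these depths counting error is of the same order as the spread between replicates for some members, such as Akt2, Pik3r1 in control and Pik3cd in the knockout-labelled libraries.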

Other observations

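The class I PI3K genes of the gamma branch, which works mainly in leukocytes, had low counts. Pik3cg, its catalytic subunit gene, had 3, 0 and 2 counts in control against 0 counts in the knockout-labelled libraries, and it was not tested. Its regulatory subunit genes went opposite ways at low counts. Pik3r5 had 30, 93 and 51 counts in control against 0, 7 and 3 in the knockout-labelled libraries (adjusted p = 0.0022, edgeR). Pik3r6 had 0, 0 and 7 counts in control, all from replicate 3, and 136, 98 and 117 in the knockout-labelled libraries (adjusted p = 0.00042, edgeR), where its 0.89 ± 0.16 RPKM (SD, n = 3) overlapped the range of Pik3cd. The class II gene Pik3c2a, whose product makes other phosphoinositides, rose to 99.8 ± 1.39 CPM from 68.2 ± 9.02 CPM in control (SD, n = 3 each), while Pik3c2b fell from 31.4 ± 2.03 to 15.7 ± 0.49 CPM. Pik3c3 and Pik3r4, which encode the class III kinase and its partner in autophagy and endosome traffic, fell by 0.72 and 0.24 on the log2 scale (adjusted p = 9.5e-06 and 0.0053, edgeR). Pik3c2a, Pik3c2b, Pik3c3 and Pik3r4 fall outside the naming rule and were chosen after their values were seen.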
